A study of Homo sapiens with 9 samples.

Results

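ZNF143 and CTCF summits were paired in wild-type HEC-1-B, an established line of uterine adenocarcinoma cells from a human, to measure how closely the binding positions of the factors coincide and how this depends on the strength of each. The 2 libraries used for the pairing, of 9 in the series, were ChIP-nexus of ZNF143 and of CTCF. In ChIP-nexus, exonucleases trim the immunoprecipitated DNA towards the edge of the crosslinked protein, so that a peak summit locates binding closely. Members were chosen by position alone: each ZNF143 summit on chromosomes 1 to 22 and X was paired with the nearest CTCF summit within 200 bp. Of 36770 ZNF143 peaks, 27109 had such a partner, and the CTCF list held 52982 peaks.

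The labels give the genotype of the paired libraries as wild type and name no IAA treatment for them. The same antibodies were also used in derived cells of genotype CTCF-AID, in which CTCF carries a degron that the auxin IAA activates, sampled at 0 h of IAA. These untreated CTCF-AID libraries, called AID-WT by the submitters, took no part in the pairing and served as a second measurement of each position in another line. CTCF of ZNF143KO cells and wild-type RAD21 were used for further comparisons. Each group was 1 library, so no difference has a replicate check and no p-value is given. The labels do not say whether a derived line was 1 clone, and peak lists hold no expression, so the cell type could not be checked against markers.

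ZNF143 is a zinc-finger activator that binds directly to a motif found in promoters of protein-coding and small RNA genes. CTCF is a zinc-finger protein that halts cohesin, the ring complex that extrudes chromatin loops, and RAD21 is a subunit of that ring. ZNF143 is often found at CTCF sites in chromatin maps, and whether it contacts DNA there itself or is recovered through CTCF and cohesin has been debated.

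Most ZNF143 summits lay almost on top of a CTCF summit. A CTCF summit was within 200 bp of 73.7% of ZNF143 peaks (exact 95% binomial interval 73.3 to 74.2), and a ZNF143 summit was within 200 bp of 51.1% of CTCF peaks (50.7 to 51.6). The median distance in a pair was 10 bp (quartiles 4 and 19). Summits were at most 10 bp apart in 52.0% of pairs, at most 30 bp in 90.1% and at most 50 bp in 97.0%. They fell on the same base in 3.52%. Above 50 bp there was a thin tail of 805 pairs, 2.97% of the total, and 349 of these were over 100 bp apart. All intervals reflect the number of peaks counted and nothing of the variation from culture to culture.

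**Figure D1:**
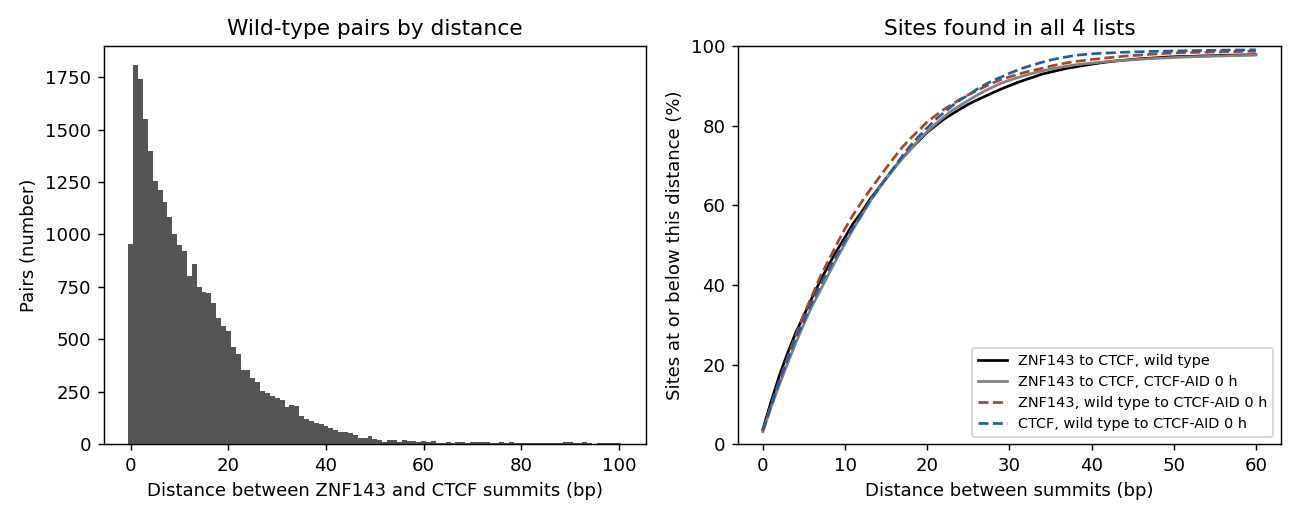
Left, the number of wild-type pairs at each distance in bp between the ZNF143 and CTCF summit, shown to 100 bp; right, the cumulative percentage of the 18335 sites found in all 4 lists against distance in bp, for ZNF143 to CTCF within a line (solid) and for each factor from wild type to CTCF-AID 0 h (dashed). Pairs thin out steadily to about 50 bp, and the 4 curves reach 50% of sites at 9 or 10 bp.

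The pairing was nearly one to one. Of the 27109 pairs, 99.4% were also nearest from the CTCF side, and 26939 different CTCF peaks served as partners. Only 167 CTCF peaks were the partner of more than 1 ZNF143 peak, with 3 as the highest number. The median distance from an unpaired ZNF143 summit to the nearest CTCF summit was 11478 bp (quartiles 3707 and 27297). Of the 9661 unpaired peaks, 6.02% had a CTCF summit at most 500 bp away and 11.6% at most 1000 bp away. At the edge of the window, 26 ZNF143 summits lay 191 to 200 bp from CTCF and 29 lay 201 to 210 bp away, with median ZNF143 signal values of 12.7 and 8.57. The next 26, at 211 to 220 bp, had a median of 13.3. Signal here is the authors' fold enrichment at the summit, deposited for each peak.

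The offset fell almost evenly to either side along the chromosome. ZNF143 lay at the lower coordinate in 49.1% (48.5 to 49.7) of pairs and at the higher in 47.3% (46.8 to 47.9), a small excess whose intervals do not overlap, with a median signed offset of 0 bp (quartiles -10 and 10). Coordinates carry no orientation of the CTCF motif, and the offset was not read along motifs here.

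The distance between the factors was about as large as the distance between measurements of the same factor in different lines. At the 18335 pairs whose peaks were both found again within 200 bp in CTCF-AID 0 h cells, 67.6% of pairs, ZNF143 and CTCF summits were a median 10 bp apart (quartiles 4 and 19) in wild type and 10 bp (4 and 19) in CTCF-AID. ZNF143 summits themselves moved a median 9 bp (4 and 18) between the lines, and CTCF summits 10 bp (4 and 18). ZNF143 was farther from CTCF than from its own CTCF-AID summit at 48.9% of these sites, nearer at 46.2% and equally far at 4.96%. Across the lines, wild-type ZNF143 was 10 bp (4 and 18) from CTCF of CTCF-AID. At the 3676 sites with at least 20 reads at the summit in all 4 lists, a limit chosen after seeing the data, ZNF143 moved a median 7 bp and CTCF 9 bp between the lines, and the factors were 9 bp apart in wild type. Over all peaks found again, CTCF moved by a median 8 bp (3 and 15) between wild-type and ZNF143KO cells and by 11 bp (5 and 20) between wild type and CTCF-AID.

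How often ZNF143 kept its side of CTCF differed between the close pairs and the wide ones. Among pairs 1 to 30 bp apart in wild type, ZNF143 lay on the same side in CTCF-AID at 49.9% of 15305 sites (49.1 to 50.7), leaving out sites with a CTCF-AID offset of 0. Among pairs over 50 bp apart it did so at 76.8% of 492 sites (72.8 to 80.5), and the intervals of these shares do not overlap. With at least 20 reads in all 4 lists the shares were 51.4% (49.6 to 53.2) and 82.3% (76.0 to 87.6). Over all sites the share was 56.8% (54.0 to 59.5) at 31 to 50 bp, 73.9% (68.4 to 79.0) at 51 to 100 bp and 80.8% (74.7 to 85.9) over 100 bp. The CTCF-AID distance followed the same split. It was a median 9 bp, 11 bp and 11 bp for wild-type distances of 1 to 10, 11 to 20 and 21 to 30 bp, but 36.5 bp for 51 to 100 bp and 105.5 bp for over 100 bp. As a description over sites, Pearson's r of the signed offsets in the lines was 0.02 for 15821 pairs 1 to 30 bp apart and 0.70 for 498 pairs over 50 bp apart. The wide classes span a larger range of offsets, which by itself allows a larger r. The side shares have a similar limit. In pairs 1 to 30 bp apart, a median 9 bp, ZNF143 summits moved 9 bp and CTCF summits 10 bp between the lines. In pairs over 50 bp apart, a median 90 bp, they moved 17 and 13 bp. A wide pair thus changes side less readily. Each CTCF-AID summit was also taken as the one nearest to the wild-type summit of its factor. Distances and sides in CTCF-AID are therefore tied to the wild-type positions and do not come from a separate pairing. The part of both limits in the shares and distances was not tested.

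**Figure D2:**
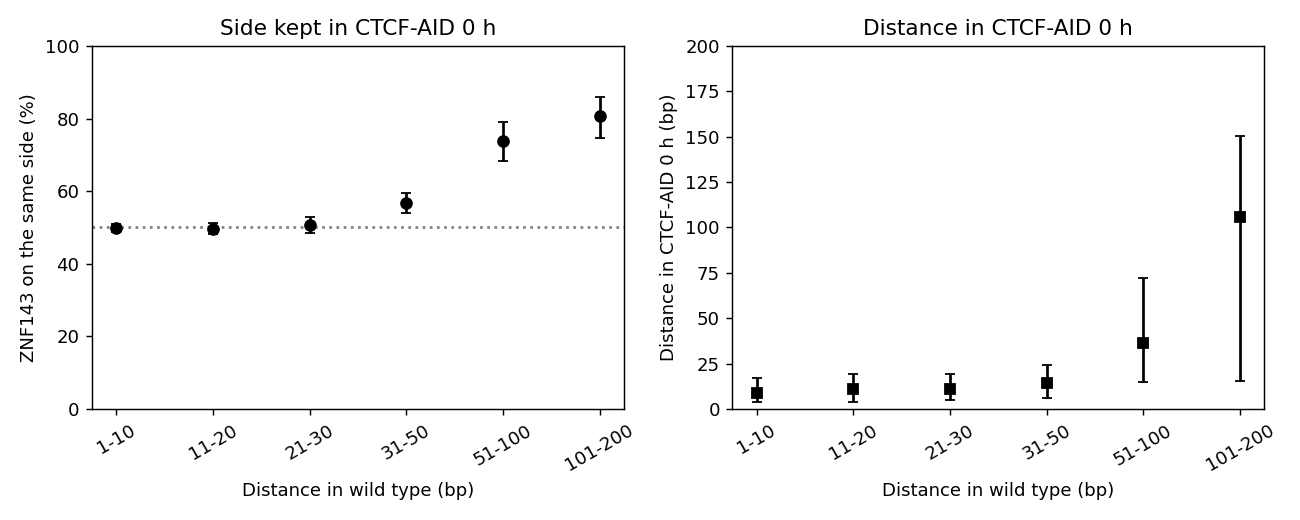
Left, percentage of sites where ZNF143 lay on the same side of CTCF in CTCF-AID 0 h as in wild-type cells, by wild-type distance class in bp (bars, exact 95% binomial intervals; dotted line, 50%); right, the median distance in bp between ZNF143 and CTCF in CTCF-AID 0 h for the same classes (bars, quartiles). The share stays between 49.6% and 50.7% up to 30 bp and reaches 80.8% in the widest class. CTCF-AID summits are those nearest to the wild-type summits.

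Sites strong for both factors were examined one by one. The pair with the highest lower rank in both lists was on chromosome 3 (hg19), with the ZNF143 peak at 196625624 to 196625770 and the CTCF peak at 196625625 to 196625770. Its signal was 30.6 for ZNF143 and 28.9 for CTCF, each past the 99th percentile of its list (99.4 and 99.1), with summits 16 bp apart in wild type and 4 bp apart in the same order in CTCF-AID. The next was on chromosome 22 (ZNF143 23827861 to 23827914, CTCF 23827863 to 23827914), 6 bp apart and, in CTCF-AID, 4 bp apart with the order of the factors changed. Its peaks were narrow for their strength, at 54 and 52 bp. Paired peaks of the strongest 10% had median widths of 112 bp for ZNF143 and 141 bp for CTCF. The third, on chromosome 5 (ZNF143 76164003 to 76164169, CTCF 76164057 to 76164182), was 13 bp apart, and 3 bp apart with the order changed. On chromosome 21, ZNF143 (11186485 to 11186648) and CTCF (11186484 to 11186695) had the same summit base.

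The strongest wide pairs roughly kept their distance and kept their order, which not all wide pairs did. Over the 498 wide pairs found in both lines, median distance was 90 bp in wild type and 52.5 bp (quartiles 15 and 103.75) in CTCF-AID. On chromosome 11 the ZNF143 summit of the peak at 8008565 to 8008758 lay 81 bp above the CTCF summit of the peak at 8008556 to 8008739, and 73 bp above it in CTCF-AID. On chromosome 1 (ZNF143 210547622 to 210547931, CTCF 210547812 to 210547965) ZNF143 was 83 bp below CTCF, and 94 bp in CTCF-AID. On chromosome 16 (ZNF143 23607539 to 23607776, CTCF 23607645 to 23607833) the distances were 117 and 111 bp. On chromosome 12 (ZNF143 50505474 to 50505837, CTCF 50505429 to 50505593) they were 184 and 190 bp. All 8 sites named so far had a RAD21 summit within 200 bp. Genes at these coordinates were not looked up, as no annotation of hg19 was used here.

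The wide pairs also differed in strength and width. Among the 805 pairs over 50 bp apart, 24.97% (22.01 to 28.11) of the ZNF143 peaks belonged to the strongest 10% of the ZNF143 list, against 3.48% (3.26 to 3.71) of pairs at most 50 bp apart. Their CTCF peaks had a median signal percentile of 52.6 in the CTCF list, against 74.3 for the closer pairs. ZNF143 peaks of wide pairs were a median 96 bp wide and those of closer pairs 65 bp. Peaks of wide pairs still overlapped in 68.0% of cases. A second ZNF143 summit lay within 200 bp of the CTCF summit in 24.2% of wide pairs, against 2.31% of all pairs.

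Pairing of CTCF peaks rose steeply with their strength. Peaks of each list were split into 10 equal groups by signal. In the weakest 3 CTCF groups 11.1%, 7.23% and 9.25% of peaks had a ZNF143 partner, against the 51.1% of the whole list. The share then rose through 17.9%, 35.0%, 58.9%, 81.9%, 93.1% and 97.5% to 99.4% (99.1 to 99.6) in the strongest, where only 32 of 5298 CTCF peaks had no ZNF143 summit. Strongest minus weakest was 88.3 percentage points (Newcombe 95% interval 87.4 to 89.1). In CTCF-AID 0 h the same split gave 63.4 points (61.6 to 65.1), with 99.4% in the strongest group and 36.0% in the weakest, over a list in which 64.4% were paired. Groups 2 and 3 of that list were lower, at 19.9% and 26.2%, so its weakest group was not the low end.

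The strength of ZNF143 had a different relation to pairing. From the weakest group to the seventh the share with CTCF rose from 67.5% (66.0 to 69.0) to 86.8% (85.7 to 87.9), against 73.7% of the whole list. It was 86.1% in group 8 and 79.2% in group 9, and then dropped to 30.4% (28.9 to 31.9) in the strongest group. That last step was -48.9 percentage points (-50.8 to -46.9). By signal rank within the group, of the 100 strongest ZNF143 peaks 3 were paired, of the next 400 peaks 42, and of the weakest 1677 of the group 805, or 48.0%. Median summit counts were 50, 51 and 29 reads in these sets, with counts stopping at 54 reads, and median backgrounds were 0.508, 0.682 and 0.456 reads. The first of these sets differs from the next in background and hardly in count, so no order is read between them. In CTCF-AID 0 h, where 56.4% of ZNF143 peaks were paired, the share rose from 34.5% in the weakest group to 74.9% in the seventh and was 37.4% in the strongest. Strongest minus weakest was -37.1 points (-39.2 to -35.0) in wild type and 2.91 points (0.642 to 5.17) in CTCF-AID, so the low share of the strongest group was seen in both lines while its order relative to the weakest was not. The wild-type difference was -13.5 points with 5 strength groups in place of 10, and -19.6 points without peaks of 50 or more reads at the summit.

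**Figure D3:**
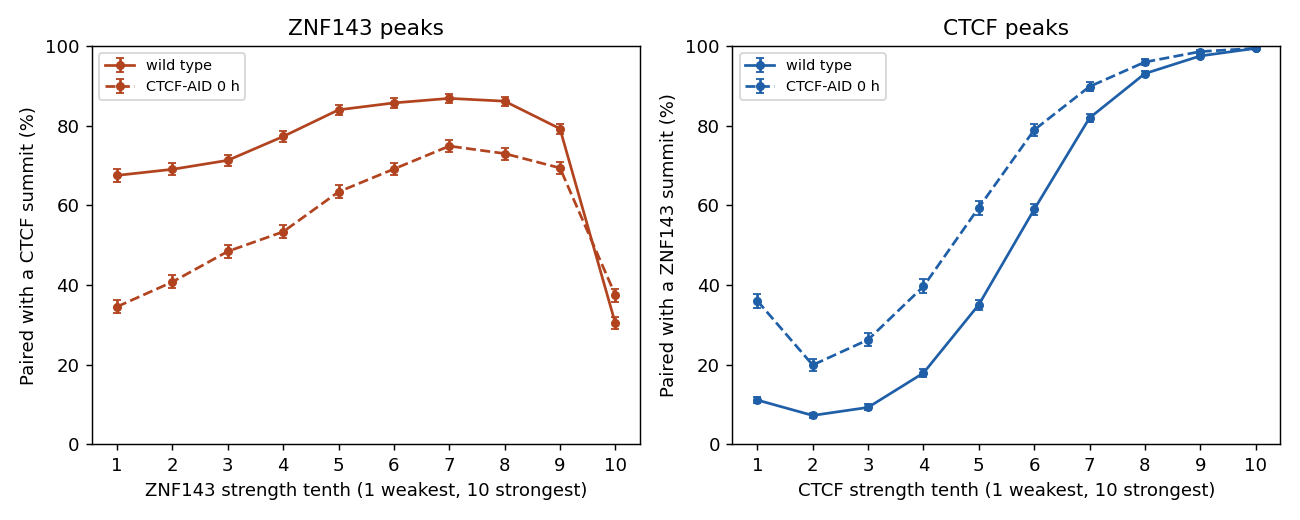
Percentage of ZNF143 peaks (left) and of CTCF peaks (right) with a summit of the other factor within 200 bp, by strength group of the list (1 weakest, 10 strongest), in wild-type (solid) and CTCF-AID 0 h cells (dashed), with exact 95% binomial intervals. Pairing of CTCF climbs to 99.4%, whereas pairing of ZNF143 drops to 30.4% (wild type) and 37.4% (CTCF-AID) in the strongest group.

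Of all wild-type ZNF143 peaks 73.1% were found again in CTCF-AID 0 h, and of all unpaired ones 82.7%. Of the 2561 unpaired peaks in the strongest ZNF143 group, 99.1% (98.7 to 99.4) had a ZNF143 summit within 200 bp in CTCF-AID 0 h, as had 99.6% (99.0 to 99.9) of the 1116 paired ones. A CTCF summit of CTCF-AID cells lay near 0.508% of the unpaired and 90.2% of the paired peaks. The longer CTCF list of ZNF143KO cells (63420 peaks) had a summit near 3.05% (2.41 to 3.79) of the unpaired and 96.8% of the paired peaks of this group. Over all 9661 unpaired ZNF143 peaks the share was also 3.05%. The 3 strongest unpaired peaks were on chromosomes 15 (76461511 to 76461670, signal 36.2), 4 (6374717 to 6374889, signal 35.9) and 2 (224822062 to 224822214, signal 35.5). Their nearest CTCF summits were 16586, 9370 and 13033 bp away, and the peak on chromosome 2 alone had a RAD21 summit within 200 bp.

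CTCF peaks that were strong and lacked ZNF143 were few. The 3 strongest were on chromosomes 17 (71206642 to 71206736, signal 29.4), 11 (9187524 to 9187629, signal 28.8) and 2 (18299067 to 18299184, signal 28.4). The nearest ZNF143 summits were 8804, 28112 and 260389 bp away. All 3 CTCF peaks had a RAD21 summit within 200 bp and were found again in CTCF-AID 0 h.

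Within pairs, ZNF143 signal followed CTCF signal. Spearman's rank correlation of the signal values over 27109 pairs was 0.59, given as a description over sites that share 2 libraries. The median percentile of the CTCF partner in its list climbed from 50.5 for the weakest ZNF143 group to 90.1 for group 9, and was 89.8 for the strongest. Among the 1116 pairs of the strongest ZNF143 group the order turned, with a rank correlation of -0.33, against 0.60 in the other groups together. Of these 1116 pairs 18.01% were over 50 bp apart, against 2.32% in the other groups, and summit counts stop at 54 reads. The part of wide pairs and of this stop in the negative value was not tested. At the 18335 sites of both lines, the rank correlation of ZNF143 with CTCF was 0.51 in wild type and 0.61 in CTCF-AID. Those values are within a line. Between the lines, at the same sites, wild-type ZNF143 with CTCF of CTCF-AID gave 0.45 (0.44 to 0.46). The rank correlation of ZNF143 with itself between the lines was 0.64, and that of CTCF with itself 0.61.

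The correlation of signals was similar up to 50 bp and lower beyond. The rank correlation was 0.61 for pairs 1 to 10 bp apart, 0.63 at 11 to 20 bp, 0.65 at 21 to 30 bp and 0.59 at 31 to 50 bp. It was 0.32 for 456 pairs at 51 to 100 bp and 0.13 for 349 pairs over 100 bp apart. Median CTCF signal was 20.8 at 1 to 10 bp and 13.9 over 100 bp, while median ZNF143 signal was 10.3 and 9.72.

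**Figure D4:**
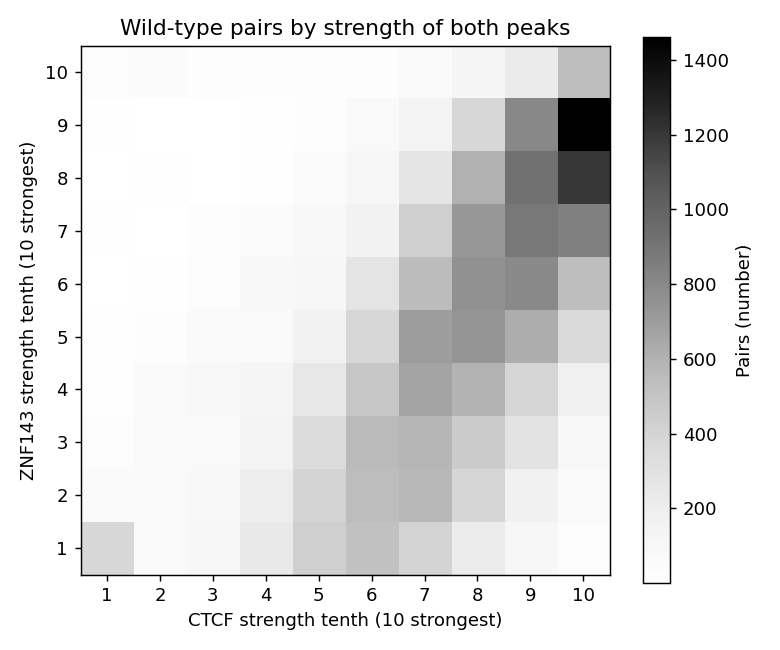
Number of wild-type pairs by strength group of the CTCF peak (horizontal) and of the ZNF143 peak (vertical), darker for more pairs. Pairs run along a diagonal towards strong CTCF, the fullest cell (1460 pairs) joins ZNF143 group 9 with CTCF group 10, and the whole top row (ZNF143 group 10) holds 1116 pairs.

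The extremes of rank were also wide pairs. On chromosome 19 a ZNF143 peak at 57751805 to 57752031, with a signal of 30.1 (percentile 99.1), had its nearest CTCF peak at 57752045 to 57752080, with a signal of 4.49 (percentile 0.589), 176 bp away and without RAD21. On chromosome 17 a CTCF peak at 72172961 to 72173087, with a signal of 29.2 (percentile 99.4), was paired with a ZNF143 peak at 72172889 to 72172933, with a signal of 5.56 (percentile 5.26), 127 bp away. In CTCF-AID the summits of that site were 6 bp apart. Pairs of a ZNF143 peak from the strongest 20% with a CTCF peak from the weakest 40% numbered 157, with a median distance of 70 bp (quartiles 18 and 115). Where both peaks came from the strongest 20% the distance was 10 bp (4 and 19) over 3027 pairs.

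By the strength of 1 factor at a time, median distances were close to each other while the wide tail was not. Median distance was between 9 and 11 bp in ZNF143 groups 1 to 9 and 13 bp in the strongest, where 18.01% (15.80 to 20.39) of pairs were over 50 bp apart, against 2.32% in the other groups together. By CTCF strength it was between 7 and 13 bp, without a steady trend. The upper quartile was 47.25 and 58 bp in the weakest CTCF groups 1 and 2, and between 17 and 26 bp in groups 3 to 10. The weakest CTCF group stood apart in background. Its 588 paired peaks had a median local background of 6.35 reads, solved from the deposited values, against 0.262 at its unpaired peaks. In the weakest CTCF group of CTCF-AID 0 h these medians were 4.70 and 0.757 reads. The 379 wild-type pairs that were in the weakest group of both lists were a median 5 bp apart. Their median background was 9.14 reads for CTCF and 8.11 for ZNF143, against 0.532 and 0.248 over all pairs. These pairs therefore have many reads and a low ratio, and the part of local background in their pairing was not tested.

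ZNF143 peaks were narrower than the CTCF peaks they were paired with. In pairs, median width was 66 bp (quartiles 47 and 84) for ZNF143 and 120 bp (98 and 141) for CTCF. ZNF143 was the narrower in 94.7% of pairs, with a median ratio of 0.553 (quartiles 0.433 and 0.688). The whole ZNF143 peak lay inside the CTCF peak in 85.7% of pairs, the reverse held in 1.89%, and the ZNF143 summit lay inside the CTCF peak in 97.8%. Widths are boundaries of a called region and grow with signal. The rank correlation of signal with width was 0.72 in the ZNF143 list and 0.83 in the CTCF list. Over the whole lists, median summit counts, also solved from the deposited values, were 13 reads for ZNF143 and 20 for CTCF. Paired CTCF peaks of groups 7 to 10 had median counts of 26, 31, 36 and 42 reads. Where paired peaks had a median of 11 reads, width was 62 bp in ZNF143 group 5 and 45 bp in CTCF group 2. Their median backgrounds were 0.216 and 0.589 reads. Width was 69 and 76 bp at 13 and 15 reads in ZNF143 groups 6 and 7. At 14 reads it was 77 bp in CTCF group 4. At 21 and 22 reads it was 88 bp in ZNF143 group 9 and 103 bp in CTCF group 6. The part of read counts and of background in the width ratio was not tested.

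Within strength groups, paired CTCF peaks were the wider throughout, and paired ZNF143 peaks were the wider in some groups only. Paired CTCF peaks had a larger median width than unpaired ones in all 10 CTCF groups, from 45 against 38 bp in the weakest to 141 against 121.5 bp in the strongest. ZNF143 peaks with CTCF were the wider in groups 1 to 7 (39.5 against 33 bp in the weakest) and the narrower in groups 8 to 10. In the strongest ZNF143 group, peaks with CTCF had a median width of 112 bp and those without 169 bp. Read counts were not equal within the groups. Median summit counts of paired against unpaired peaks were 29 against 48 in the strongest ZNF143 group, 35 against 7 in the weakest CTCF group and 42 against 38 in the strongest. The part of read counts in these widths was not tested.

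**Figure D5:**
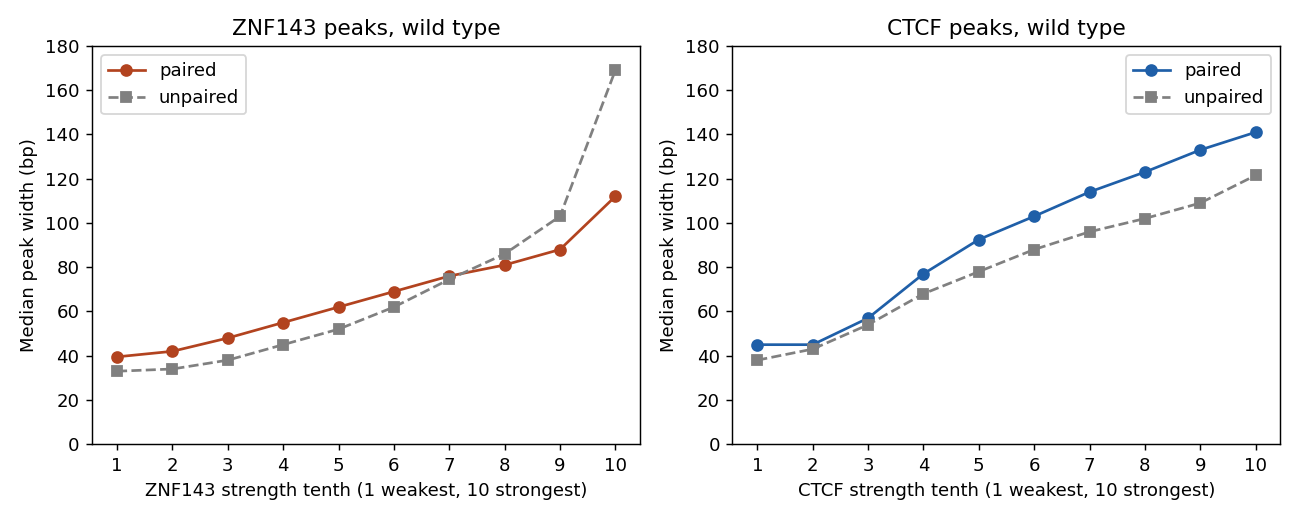
Median width in bp of paired (solid) and unpaired (dashed) ZNF143 peaks (left) and CTCF peaks (right) by strength group in wild-type cells. The ZNF143 lines cross after group 7 and part to 112 and 169 bp in the strongest group, while paired CTCF peaks stay the wider throughout.

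RAD21, which the pairing did not use, was near almost all paired peaks. A RAD21 summit lay within 200 bp of 97.1% (96.8 to 97.3) of paired and 7.98% (7.45 to 8.54) of unpaired ZNF143 peaks. For CTCF the shares were 97.1% (96.9 to 97.3) of paired and 55.9% (55.3 to 56.5) of unpaired peaks. Unpaired CTCF peaks were the weaker ones, with a median signal of 9.03 against 20.7, and among unpaired CTCF peaks the share with RAD21 ran from 32.6% in the weakest group to 97.0% in group 9. Even in the strongest ZNF143 group RAD21 was near 91.8% of paired and 10.1% of unpaired peaks. By distance, the CTCF peak had RAD21 in 97.7% of pairs 1 to 10 bp apart and in 76.2% (71.4 to 80.6) of pairs over 100 bp apart.

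Where all 3 factors had summits, RAD21 lay farther from each of the others than these lay from each other. At 26325 such pairs the median distance was 10 bp for ZNF143 to CTCF, 14 bp (quartiles 6 and 25) for ZNF143 to RAD21 and 16 bp (6 and 31) for CTCF to RAD21. RAD21 was nearer to ZNF143 at 53.3% of sites and nearer to CTCF at 42.3%. In the 639 triple sites with ZNF143 and CTCF over 50 bp apart this turned: RAD21 was nearer to CTCF at 72.3% (68.7 to 75.7), a median 22 bp from CTCF and 78 bp from ZNF143. To avoid using a CTCF summit in both offsets, the side of RAD21 was also taken from other CTCF libraries. RAD21 lay on the ZNF143 side at 59.9% of 24612 sites (59.3 to 60.5) with ZNF143KO CTCF and at 58.3% of 22489 sites (57.7 to 59.0) with CTCF-AID 0 h CTCF. For wild-type distances of 1 to 30 bp the shares were 58.8% and 57.2%, beside the 49.9% for ZNF143 itself in CTCF-AID. ZNF143 and RAD21 in the first shares were both measured in wild-type cells, whereas the 49.9% compares ZNF143 in separate lines. For pairs over 50 bp apart the shares were 60.3% (56.3 to 64.3) of 597 sites with ZNF143KO CTCF and 53.8% (49.4 to 58.1) of 517 sites with CTCF-AID 0 h CTCF, and the latter interval includes 50%.

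The paired share of ZNF143 peaks differed between chromosomes. It was lowest on chromosome 19, with 55.9% (53.7 to 58.1) of 2026 ZNF143 peaks, and highest on chromosome 18, with 79.6% (76.4 to 82.6) of 678. Chromosome 19 also had the largest share of its ZNF143 peaks in the strongest group, 19.1%, and chromosome 18 the smallest, 4.87%. Without the strongest group the shares were 63.3% and 83.1%, and the order of these chromosomes stayed. Median distance was between 8 and 12 bp on all 23 chromosomes.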

How the data were processed

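The authors deposited 1 peak list per library. The submitters' processing notes name cutadapt 2.10, Bowtie2 2.3.5.1, SAMtools 1.12, MACS2 2.2.7.1, deepTools and the builds GRCh37 and hg19, without settings, filters or pooling. The deposited signal is a ratio, read as fold enrichment over local background, and the deposited significance values are −log10 p and −log10 q. Total read depth is unknown. Summit counts and backgrounds were therefore solved from the deposited ratio and −log10 p, taking the ratio as (count + 1)/(background + 1) and a Poisson p. Whole counts reproduced −log10 p within 0.002 at 100% of peaks. Counts in wild type stopped at 54 reads, reached by 2.88% of ZNF143 and 0.255% of CTCF peaks. In CTCF-AID 0 h they stopped at 62 reads for ZNF143 (3.39% of peaks) and at 88 for CTCF (0.441%). What set these stops was not tested.

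A summit is the peak start plus the deposited summit distance. Coordinates are 1-based on hg19. Ties in distance went to the stronger partner. Signal values rank peaks within a list only. Shares carry exact (Clopper-Pearson) 95% intervals. Named sites, none from chromosomes 8 or 18, are the 3 pairs with the highest lower percentile rank in the lists, the 2 highest at 0 to 10, 50 to 100 and over 100 bp, the 3 strongest unpaired peaks of each factor and the pair with the largest rank difference each way. The members and lists were chosen with earlier results of these data known. Alternatives changed the window, the pairs, the lists and the measure of strength. Motifs were not searched, because no genome of this build was used here. The pairing code was checked on 432 ZNF143 peaks of chromosome 21 against an all-pairs search, with 0 differences, and 0 of 432 simulated summit counts were missed. The simulated counts came from the formula being solved and did not reach the highest counts and backgrounds of the lists. They check the solving step only. Tables were computed in Python 3.11.15 (scipy 1.17.1, pandas 2.3.3, numpy 2.4.6) and plots drawn in matplotlib 3.10.9.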

Additional observations from a re-analysis of the deposited data

Results flagged for a closer look

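Peaks outside chromosomes 1 to 22 and X took no part in the comparisons, and their numbers exceed the limit of 3 for a count of 0. Chromosome Y held 179 ZNF143 and 252 CTCF peaks, and 152 of the ZNF143 peaks had a CTCF summit within 200 bp, at a median distance of 3 bp. The mitochondrial and unplaced sequences had 262 ZNF143 and 349 CTCF peaks, with 191 ZNF143 peaks paired at a median 5 bp. Both medians were below the 10 bp of the chromosomes used. HEC-1-B is a uterine line, so the chromosome Y peaks are not read as binding sites on that chromosome. How reads came to be placed on any of these sequences was not tested.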

How the results depend on the processing

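No paired analysis was possible because each group was 1 library, so no replicate could be left out either. Of 91 alternative values of 15 results, 44 lay inside the 95% interval around the reported value, 47 moved outside it and 0 changed sign. Only the rank correlation and the group differences could change sign, as shares, distances and width ratios cannot be negative. These intervals are narrow because the lists are long. The alternatives for CTCF-AID and RAD21 and the limits on summit counts were chosen after seeing the data. Offsets along motifs were not run. Beyond fewer peaks or another window, the cause of a move was not tested.

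With windows of 50, 100 and 500 bp, the paired share of ZNF143 was 71.5%, 72.8% and 75.3%, and that of CTCF 49.6%, 50.5% and 52.5%. The share of pairs at most 10 bp apart was 53.6%, 52.7% and 50.9%, and the rank correlation of the signals 0.613, 0.603 and 0.566. The strongest minus weakest CTCF group was 89.9, 89.6 and 84.5 points. The median distance was 9 bp at 50 bp, and the ZNF143 group difference -34.8 points at 500 bp. With mutual nearest pairs, the ZNF143 share was 73.3% and the CTCF group difference 89.6 points.

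With the CTCF list reduced to its strongest peaks at the length of the ZNF143 list, the paired shares were 70.0% (ZNF143) and 69.6% (CTCF), the rank correlation 0.582, the width ratio 0.545, and the group differences -24.8 and 82.7 points. Without the strongest 10% of both lists these were 64.2%, 44.6%, 0.518, 0.537, -27.7 and 82.5 points. With −log10 q of at least 5, the CTCF share was 49.9%, the rank correlation 0.573, the width ratio 0.557, and RAD21 was near 96.8% of paired and 6.32% of unpaired ZNF143 peaks. With −log10 p as strength, the rank correlation was 0.612 and the CTCF group difference 94.7 points. With 5 strength groups the differences were -13.5 (ZNF143) and 89.3 points (CTCF). Without peaks of 50 or more reads, the ZNF143 share was 74.9% and its group difference -19.6 points.

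At sites with at least 20 reads in 4 lists, ZNF143 moved 7 bp and CTCF 9 bp between the lines, the factors were 9 bp apart, and ZNF143 kept its side at 51.4% of close and 82.3% of wide pairs. Total depth is unknown, and 1 library a group leaves the variation between cultures unmeasured.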
